A study of Danio rerio with 12 samples.

Results

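Macrophages taken from wounded zebrafish larvae were compared with macrophages from unwounded larvae while beclomethasone, a synthetic glucocorticoid, was present in both groups. The comparison held 6 of the 12 samples of the series, chosen by their labels alone and with the outcome of earlier analyses of these data known: 3 samples of amputated larvae treated with beclomethasone (Amp+Beclo) and 3 of non-amputated larvae treated with beclomethasone (Beclo). It addressed what is left of the wound response of macrophages when the drug is present with and without the wound. In both groups, larvae of 3 days post fertilization were kept in egg water with 25 µM beclomethasone from 2 h before the time of amputation, and cells were collected at 4 h post amputation (hpa). All larvae carried the transgene Tg(mpeg1.4:mCherry-F), in which the promoter of the macrophage gene mpeg1 drives a red fluorescent protein, and red cells were sorted from dissociated pools of 100 to 150 embryos per sample with the transcription inhibitor actinomycin D present in every step. The other 6 samples, 3 from amputated (Amp) and 3 from non-amputated (Control) larvae kept in vehicle (0.05% DMSO), served as the same comparison without the drug, and the amputation effects with and without the drug shared no sample. Same-numbered samples were treated as pairs, since the study drew its groups from replicate experiments and analysed them in pairs, and each sample is a pool, so the spread between larvae was not measured.

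After tissue is cut, macrophages near the wound sense damage signals through Toll-like and other receptors, switch on NF-kB and other transcription factors, and release cytokines such as Il1b, Il6 and Tnfa together with chemokines that call in neutrophils. Macrophages in this state also take up more glucose, make itaconate and reactive oxygen, and secrete proteases that open the matrix. Glucocorticoids bind a nuclear receptor that raises genes such as fkbp5 and dampens many NF-kB and AP-1 targets.

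The 6 libraries held 9488569 to 15161157 reads on genes, and 23152 to 25246 genes had at least 1 read, the lowest number being in Beclo replicate 3. Levels are given as CPM, the read counts of a gene scaled to a common library total with TMM factors, which compares samples but not genes of different length. Both drug-treated groups carried a mark of the drug: fkbp5, a chaperone gene that glucocorticoids induce, stood at 2014, 1584 and 1857 CPM in Beclo and 1687, 1262 and 1126 CPM in Amp+Beclo, against 104 to 213 CPM in the 6 vehicle samples. Macrophage markers were detected, and none of their 24 identifiers was at 0 in all 6 samples. Their summed level was 21600, 10310 and 7235 CPM in Amp+Beclo replicates 1 to 3 and 23060, 15720 and 14830 CPM in Beclo replicates 1 to 3, lower after amputation in every pair. At an unadjusted p below 0.05, 5.9% of all genes tested were higher and 3.39% lower, which is the background for the marker counts here. Of the 24 macrophage identifiers, 1 was higher and 4 were lower at this p. The 4 included the more abundant identifier of mpeg1 (ENSDARG00000055290), the gene whose promoter marked the sorted cells, which had 1496, 1227 and 741 CPM in Beclo and 1158, 451 and 328 CPM in Amp+Beclo. In RNA from many cells, a smaller share of macrophages and less of these RNAs per macrophage cannot be told apart. Markers of other tissues were present too, and no list of them had a member at 0 in all 6 samples. The summed markers of muscle (11 identifiers, none higher or lower at an unadjusted p below 0.05) ranged from 19260 to 62670 CPM in Amp+Beclo and 31020 to 42100 CPM in Beclo. Those of epidermis (10, none) ranged from 8756 to 18560 CPM in Amp+Beclo and 13310 to 22090 CPM in Beclo. Neutrophil markers (10 tested, 1 lower) summed to 329 to 564 CPM in Amp+Beclo and 438 to 595 CPM in Beclo, and red blood cell markers (7, 1 lower) to 628 to 1133 CPM in Amp+Beclo and 1030 to 1834 CPM in Beclo. Thrombocyte markers (5, 2 higher) were higher in every pair, with sums of 127.8, 147.1 and 167.1 CPM in Beclo and 181.4, 215.1 and 240.2 CPM in Amp+Beclo. Lens and retina markers (8, 2 higher) summed to 352 to 1204 CPM in Amp+Beclo and 223 to 954 CPM in Beclo. Exocrine pancreas markers (8, 1 higher) reached 453.8 CPM in Amp+Beclo replicate 2 and 31.68 to 69.9 CPM in the other samples. Of the neural markers (11), 2 were higher and 1 lower, and of the lymphoid, endothelial and pigment cell markers none was. Their part in the results was not tested.

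With beclomethasone in both groups, macrophage samples from wounded larvae held more RNA of a small set of inflammatory genes than those from unwounded larvae. Among them were the Il6 family cytokine genes il6 (3.53-fold, log2 1.82 ± 0.31 SE from the edgeR fit of 3 pairs) and m17 (4.07-fold, 2.03 ± 0.22 SE), the itaconate enzyme gene acod1 (2.74-fold, 1.45 ± 0.22 SE), the flagellin receptor gene tlr5b (2.92-fold, 1.55 ± 0.23 SE) and the protease gene adam8a (3.46-fold, 1.79 ± 0.23 SE). They held less RNA of the chemokine receptor gene cxcr4 (log2 -1.10 ± 0.26 SE), of cd83 (-1.01 ± 0.23 SE) and of the C1q gene c1qb (-1.62 ± 0.35 SE). Of the higher genes, m17, adam8a and acod1 were named by small p in these same samples. Of the lower genes, cd83 and c1qb were named in this way, and cxcr4 both in this way and as a gene of the study text. Other inflammatory genes, such as pycard, irf5, ccl35.1, gch2 and gpx1a, had negative log2 fold changes. The cytokine list had a median of 0.14 (pairs 0.32, 0.51 and -0.19) and the itaconate and oxidative burst list -0.08, beside 0.06 over all genes. The medians of the cell cycle and lysosomal gene lists were -0.45 and -0.40, with no gene of either list called by edgeR or by DESeq2. The lists of glycolysis, tricarboxylic acid cycle and nuclear-encoded respiratory chain genes, with medians of 0.98, 0.79 and 1.04 after amputation in vehicle, had medians of 0.06, -0.12 and -0.30 with the drug. In vehicle the summed muscle markers were also higher after amputation in every pair, and their part in these medians was not tested. Amp replicates 2 and 3 had the lowest TMM factors of the 12 samples, and the part of this was not tested either. None of the genes named here passed correction over all genes with edgeR.

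A single gene passed the threshold used throughout (Benjamini-Hochberg adjusted p below 0.05 and a fold change above 2, edgeR quasi-likelihood test with the replicate pairs as a block): 1 of 21727 genes tested, or 0.0046%. It was higher in Amp+Beclo. At an unadjusted p below 0.05 there were 2017 genes (9.28%), of which 1281 were higher (5.9% of all genes tested) and 736 lower (3.39%). This split depended on the scaling of the libraries, since with RLE in place of TMM factors the same fit gave 1098 higher and 989 lower genes and no call. The count of calls depended on the tool and on the samples. DESeq2 with the same block called 109 genes (0.502%), of which 88 were higher (0.405%) and 21 lower (0.0967%). limma-voom with the block called 1, and edgeR without the block called none (1140 genes at an unadjusted p below 0.05). With the block, edgeR called 38 when replicate 3 was left out but none without replicate 1 or replicate 2. All 109 genes called by DESeq2 had an unadjusted edgeR p below 0.05, and the 88 higher ones were higher in all 3 pairs. Both tools used the same 6 samples. Of the 109, 69 had the same sign of log2 fold change in vehicle and 40 the opposite sign. Over all genes tested in both comparisons, 34.5% had the same sign. The values of the 3 amputated samples lay wholly above those of the 3 non-amputated ones for 1136 genes (5.23%) and wholly below for 1227 (5.65%), which is the background for the single genes whose groups are said below not to overlap. For comparison, the same test called 543 of 22107 genes (2.46%) for amputation in vehicle, 251 higher (1.14%) and 292 lower (1.32%), a count that likewise became 0 without the block.

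The gene that passed was si:dkey-195m11.11 (ENSDARG00000097909), for which the annotation used gives no function. It had 37.3, 61.3 and 41.8 CPM in Beclo replicates 1 to 3 and 192, 356 and 278 CPM in Amp+Beclo. All amputated samples lay above all non-amputated ones. It rose 6.05-fold (log2 fold change 2.60 ± 0.20 SE, adjusted p = 0.0489 by edgeR and 2.27e-23 by DESeq2), and in vehicle its log2 fold change was 3.46 ± 0.42 SE. It also passed with limma-voom, with DESeq2 with and without the block, with both other filters on low counts and without replicate 3, whereas with RLE scaling, without the block, without replicate 1 or 2 and in the fit of all 12 samples it did not pass.

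The naming rule took the 12 genes with the smallest p on the higher side, si:dkey-195m11.11 among them. The other 11 did not pass edgeR's threshold, and all 12 passed with DESeq2. mxf, a member of the interferon-inducible Mx family of large GTPases, showed the largest difference of these 12, with 19.9, 25.6 and 34.02 CPM in Beclo and 96.4, 431 and 365 CPM in Amp+Beclo. Replicate 1 was the lowest of the amputated samples and still lay above every Beclo sample. Its log2 fold change was 3.32 ± 0.36 SE (edgeR adjusted p = 0.0892, DESeq2 adjusted p = 9.41e-21), beside 2.73 ± 0.40 SE in vehicle. m17, an Il6 family cytokine of fish, went from 7.12, 23.6 and 17.5 CPM to 36.4, 85.0 and 58.2 CPM (log2 fold change 2.03 ± 0.22 SE, vehicle 2.05 ± 0.38 SE). gpr84, which in mammals encodes a receptor for medium-chain fatty acids on myeloid cells, had 51.5, 108 and 80.9 CPM without and 176, 316 and 226 CPM with amputation (log2 fold change 1.65 ± 0.19 SE, vehicle 1.38 ± 0.39 SE). The groups were apart for each of these genes.

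adam8a, a membrane-bound metalloproteinase gene, had 93.5, 90.3 and 61.9 CPM in Beclo and 224, 377 and 229.6 CPM in Amp+Beclo. The lowest amputated sample was more than 2-fold above the highest Beclo sample, and the log2 fold change was 1.79 ± 0.23 SE (edgeR adjusted p = 0.111). nampt (ENSDARG00000030598), which encodes the rate-limiting enzyme of NAD salvage, was 3.06-fold higher, and rap1gap (ENSDARG00000053272), a GTPase-activating protein gene for the adhesion switch Rap1, was 3.45-fold higher. moxd1, a gene of the copper-dependent monooxygenases, was 2.98-fold higher. Of the rest, si:ch73-90p23.1, si:dkey-27h10.2 and si:ch211-147m6.2 have no described function in the annotation used and were 4.99-fold, 3.66-fold and 2.98-fold higher.

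On the lower side no gene passed edgeR's threshold, and 8 of the 12 genes taken by the naming rule passed with DESeq2 with the block. tcnba, a cobalamin-binding protein gene, had 2.49, 19.35 and 19.7 CPM in Beclo but only 0.312, 0.390 and 0.461 CPM in Amp+Beclo, which rests on 4, 4 and 5 reads. Its log2 fold change was -4.78 ± 0.56 SE (edgeR adjusted p = 0.0972), against 0.13 ± 0.56 SE in vehicle, and the test of the difference gave an unadjusted p of 0.00034 and an adjusted p of 0.451. In Control and Amp the same gene varied in both directions. tnfsf12, the gene of the TNF family ligand TWEAK, had 228, 172 and 173 CPM in Beclo and 142, 69.7 and 45.4 CPM in Amp+Beclo (log2 fold change -1.25 ± 0.26 SE, DESeq2 adjusted p = 0.00104). cd83, an activation marker of antigen-presenting cells, had 232, 255 and 172 CPM and 161, 98.0 and 69.9 CPM (log2 fold change -1.01 ± 0.23 SE), and its groups were apart. In vehicle it fell by 1.76 on the log2 scale (adjusted p = 0.00328 by edgeR), so the wounded samples were lower with and without the drug. c1qb, a subunit gene of the complement recognition protein C1q, went from 92.4, 42.9 and 52.2 CPM to 54.3, 13.1 and 8.47 CPM, with replicate 1 the highest in both groups (log2 fold change -1.62 ± 0.35 SE, DESeq2 adjusted p = 0.000428).

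cxcr4 (ENSDARG00000041959, listed as cxcr4b), which encodes the receptor of the chemokine Cxcl12, had 1488, 1026 and 1187 CPM in Beclo and 967, 465 and 368 CPM in Amp+Beclo, again without overlap. Its log2 fold change was -1.10 ± 0.26 SE with the drug and -0.91 ± 0.40 SE in vehicle. The symbol is shared by a further identifier (ENSDARG00000057633), which stayed at 1.11 to 3.06 CPM in the 6 samples. acp5, the tartrate-resistant acid phosphatase gene of osteoclasts and macrophages, had 421, 239 and 258 CPM and 276, 121 and 80.2 CPM, and here Amp+Beclo replicate 1 overlapped the Beclo samples. rnaset2l, a lysosomal ribonuclease gene, and lmcd1, a LIM domain protein gene, had log2 fold changes of -1.44 ± 0.33 SE and -1.16 ± 0.28 SE with the same overlap of replicate 1. The rest, si:dkeyp-97b10.3, si:dkey-21o19.2, the pineal opsin gene parapinopsinb and the keratin gene krt1-c5, were at 25.4 CPM or less in all 6 samples and did not pass with edgeR or with DESeq2 with the block. DESeq2 without the block called si:dkey-21o19.2. Of the 8 genes that passed with DESeq2 with the block, all except tcnba had their highest amputated value in Amp+Beclo replicate 1. This replicate also had the highest summed macrophage markers of its group, and a link between these values was not tested.

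**Figure D1:**
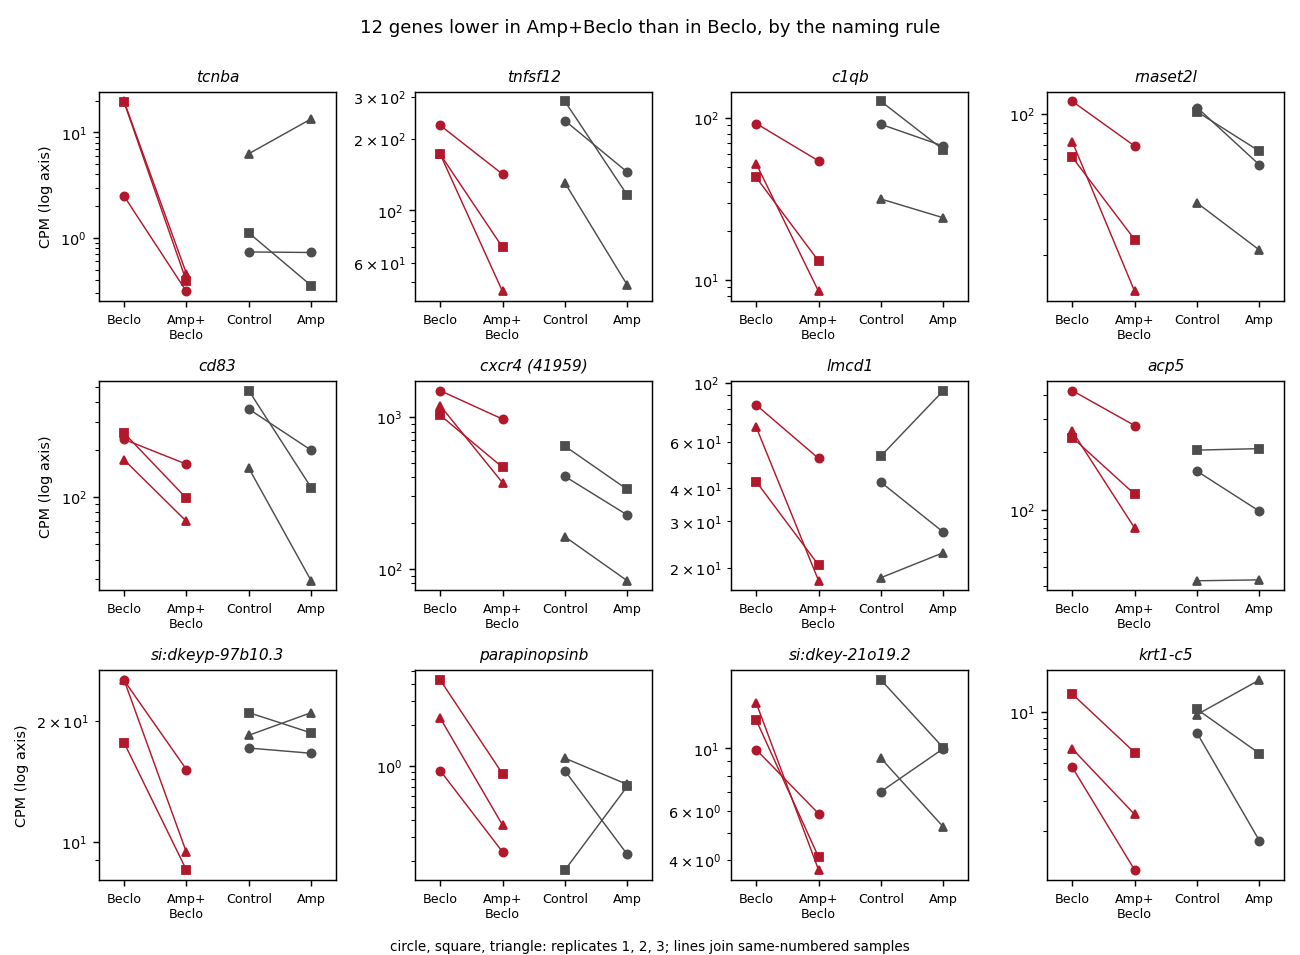
CPM (log axis) of the 12 named lower genes in the samples of Beclo and Amp+Beclo (red) and of Control and Amp (grey), drawn as for the higher genes. The naming rule required every red line to slope downward, while the grey lines of tcnba, lmcd1 and krt1-c5 differ in direction between pairs.

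Among pro-inflammatory cytokine and chemokine genes, 7 of 22 tested were higher at an unadjusted p below 0.05 (31.8%, against 5.9% of all genes) and 1 was lower. None passed the adjusted threshold with edgeR, and 3 of the 22 were called higher by DESeq2, beside 0.405% of all genes. The median log2 fold change of the list was 0.14, beside 0.06 over all genes and 0.69 for the list in vehicle, and the medians of the 3 pairs were 0.32, 0.51 and -0.19. Without replicate 2 the list had 4 higher and 2 lower genes and a median of -0.04. il6 had 2.92, 4.46 and 6.32 CPM in Beclo and 8.12, 23.3 and 17.1 CPM in Amp+Beclo, with no overlap (log2 fold change 1.82 ± 0.31 SE, edgeR adjusted p = 0.317, DESeq2 adjusted p = 0.00256). In vehicle it rose by 3.01 ± 0.41 SE on the same scale (adjusted p = 8.61e-10 by edgeR), from 1.11, 11.8 and 3.26 CPM to 8.03, 68.1 and 41.7 CPM, so that the wounded samples with the drug were below Amp replicates 2 and 3. il1b, the gene of the main inflammasome cytokine, had 90.3, 137 and 234 CPM in Beclo and 167, 371 and 286 CPM in Amp+Beclo. Beclo replicate 3 lay above Amp+Beclo replicate 1, although each pair was higher after amputation (log2 fold change 0.92 ± 0.25 SE, edgeR adjusted p = 0.528, vehicle 1.40 ± 0.41 SE).

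tnfa was close to the floor of detection under the drug, with 0.570, 0.336 and 0.722 CPM in Beclo and 1.17, 2.83 and 1.66 CPM in Amp+Beclo (log2 fold change 1.76 ± 0.64 SE, edgeR adjusted p = 0.528). Amp replicates 2 and 3 in vehicle reached 21.1 and 17.8 CPM, single samples that do not give the size or spread of the vehicle effect. cxcl8a, a chemokine gene for neutrophils, had 6.13, 5.47 and 6.32 CPM and 13.9, 17.6 and 6.17 CPM: replicates 1 and 2 were higher after amputation and replicate 3 was not. csf3b, a granulocyte colony-stimulating factor gene, went from 22.5, 21.5 and 25.7 CPM to 48.6, 64.8 and 35.6 CPM (log2 fold change 1.11 ± 0.26 SE, DESeq2 adjusted p = 0.0495, vehicle 2.89 ± 0.43 SE). il11b, an Il6 family cytokine gene named here after its values were seen, had the largest difference of the list, from 0.214, 0.925 and 0 CPM to 5.54, 6.92 and 3.50 CPM (log2 fold change 4.15 ± 0.73 SE, edgeR adjusted p = 0.34). Its Beclo values were close to the floor of detection, so the size of this difference is uncertain. The other chemokine genes had values in both directions. cxcl18b, a further chemokine gene for neutrophils, had 3.92, 4.29 and 6.32 CPM and 4.45, 5.36 and 4.33 CPM (log2 fold change 0.04 ± 0.36 SE, of opposite sign with DESeq2 and with RLE scaling), ccl35.1 had a log2 fold change of -0.83 ± 0.26 SE, and ccl34b.1, with many reads, -0.55 ± 0.30 SE. The gene ccl38a.5, listed as ccl2, stood at 0.712, 0.673 and 0.812 CPM and 1.40, 2.24 and 1.01 CPM (log2 fold change 1.07 ± 0.57 SE), and cxcl11.1, the gene of a chemokine that attracts macrophages, had too few reads to be tested.

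**Figure D2:**
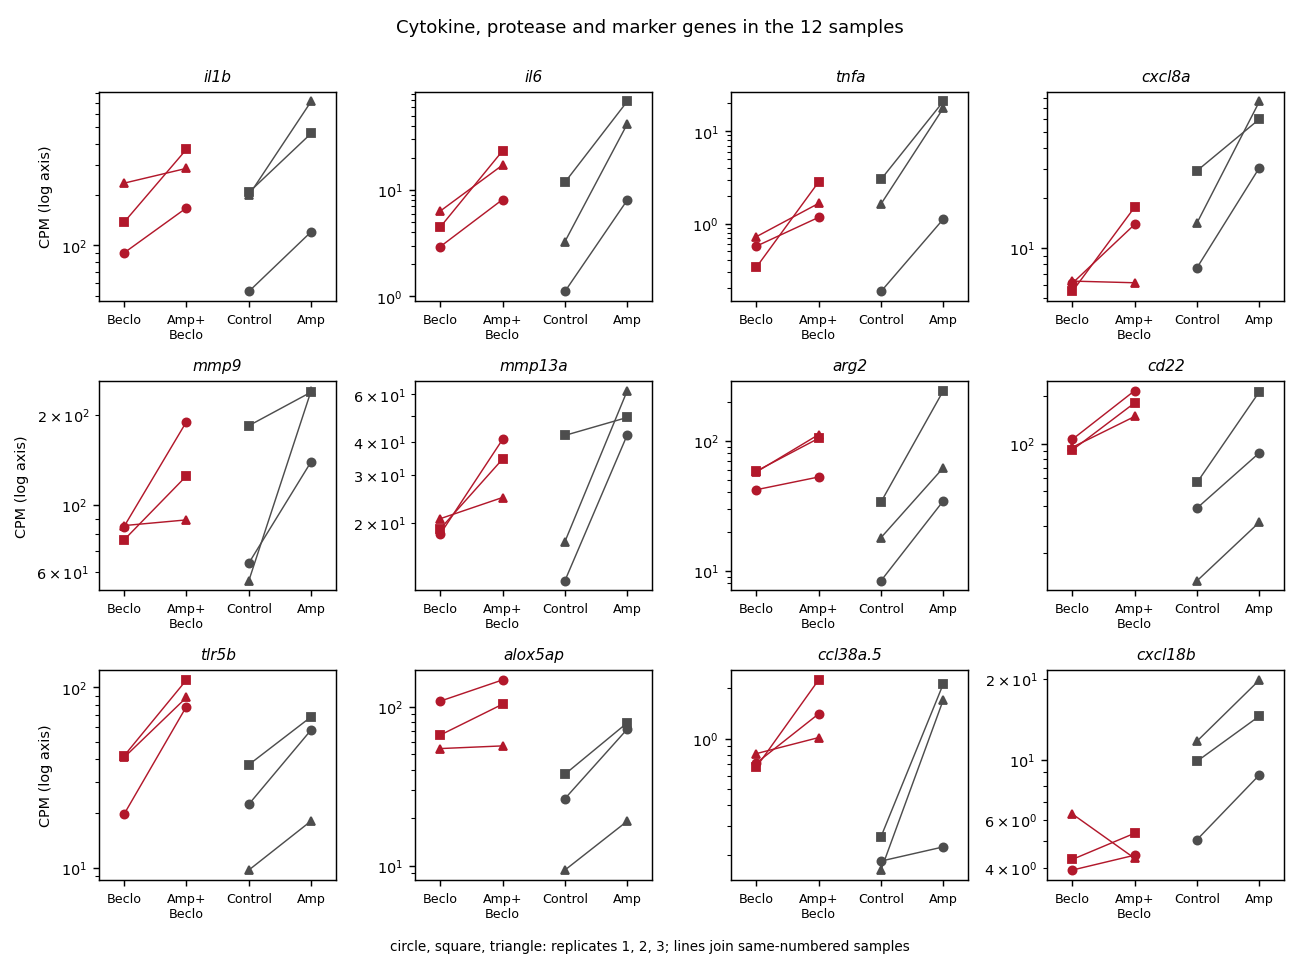
CPM (log axis) of 12 cytokine, chemokine, protease and marker genes in Beclo and Amp+Beclo (red) and in Control and Amp (grey), with lines joining same-numbered samples. The red lines of il6, tnfa, tlr5b and cd22 slope upward without overlap between groups, and those of cxcl8a and cxcl18b differ in direction between pairs.

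Of 27 genes of NF-kB, JAK-STAT and their feedback inhibitors, 3 were higher (1 in 9, against 5.9% of all genes) and 2 lower (7.41%, against 3.39%) at an unadjusted p below 0.05, with a median log2 fold change of 0.12. Without replicate 1 there was 1 in each direction. tnip1, an inhibitor of NF-kB signalling, was higher in each pair, from 47.1, 101 and 71.6 CPM to 73.3, 269.5 and 171 CPM (log2 fold change 1.16 ± 0.22 SE, DESeq2 adjusted p = 0.00462), and its log2 fold change in vehicle was 0.05 ± 0.38 SE (unadjusted p of the difference 0.0632). irf5, a transcription factor gene of inflammatory macrophages, had a log2 fold change of -0.72 ± 0.22 SE. Of 23 pattern recognition genes, 3 were higher (13.0%) and 2 lower (8.70%), read against the same shares of all genes. The median of this list was -0.12 with the drug and -0.84 in vehicle. In vehicle 3 of the 23 were higher and 12 lower at an unadjusted p below 0.05. Over all 21465 genes tested in both comparisons, 1791 were higher and 2183 lower in vehicle. tlr5b, a receptor gene for flagellin, had 19.8, 41.7 and 40.9 CPM in Beclo and 78.3, 110.0 and 88.0 CPM in Amp+Beclo, without overlap (log2 fold change 1.55 ± 0.23 SE, DESeq2 adjusted p = 1.73e-05). In vehicle the value was 1.06 ± 0.37 SE, and the difference between drug and vehicle in the joint fit of all 12 samples was smaller than its error (0.31 ± 0.63 SE, unadjusted p = 0.625). pycard, the inflammasome adaptor gene, had a log2 fold change of -0.83 ± 0.21 SE, and pglyrp5, a peptidoglycan recognition protein gene, 0.66 ± 0.21 SE with the drug beside 2.56 ± 0.40 SE in vehicle (unadjusted p of the difference 0.0168).

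Of 18 genes for itaconate, the oxidative burst and nitric oxide, 4 were higher (22.2%, against 5.9% of all genes) and 2 lower (1 in 9, against 3.39% of all genes) at an unadjusted p below 0.05, and without replicate 2 there were 3 higher and 5 lower. acod1, which makes itaconate in activated macrophages, had 154, 169 and 216 CPM in Beclo and 382, 594 and 457 CPM in Amp+Beclo. The groups were apart (log2 fold change 1.45 ± 0.22 SE, edgeR adjusted p = 0.178, DESeq2 adjusted p = 5.46e-06), and in vehicle acod1 rose by 2.16 ± 0.44 SE (adjusted p = 0.000333 by edgeR). ncf1, a subunit gene of the NADPH oxidase, was higher in each pair, from 314, 271 and 212 CPM to 645, 522 and 312 CPM (log2 fold change 0.90 ± 0.20 SE), and the catalytic subunit gene cybb had a log2 fold change of 0.37 ± 0.20 SE. For the tetrahydrobiopterin enzymes the directions differed: gch2 was at -0.75 ± 0.18 SE and gch1, named after its values were seen, at 1.02 ± 0.28 SE. The glutathione peroxidase genes gpx1a and gpx1b, named in the same way, were likewise at -0.89 ± 0.24 SE and 1.37 ± 0.55 SE.

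Of 14 complement genes tested, 3 were higher and 3 lower at an unadjusted p below 0.05 (21.4% each, against 5.9% and 3.39% of all genes), and without the block 2 were higher and none lower. The 3 lower ones were the genes of C1q, the recognition subunit of the classical pathway, of which c1qa and c1qc were named after their values were seen: c1qa, c1qb and c1qc had log2 fold changes of -0.70 ± 0.29 SE, -1.62 ± 0.35 SE and -1.10 ± 0.29 SE. The 3 higher ones encode a C3 protein (c3a.1), factor B of the alternative pathway (cfb) and a terminal component (c7b), the first 2 named in the same way, with log2 fold changes of 0.99 ± 0.35 SE, 1.63 ± 0.35 SE and 1.63 ± 0.29 SE. c7b had 9.33, 6.14 and 8.12 CPM in Beclo and 20.5, 28.8 and 21.5 CPM in Amp+Beclo without overlap, and its vehicle value was 1.76 ± 0.41 SE. The values for c1qa, c1qb, c1qc, c3a.1 and cfb in vehicle were -0.27, -0.60, 0.23, -0.66 and -0.34 on the log2 scale. The median of the list was 0.51 with the drug and -0.47 in vehicle. C1q genes are expressed by resident macrophages. The summed macrophage markers given above were lower in the same samples, and their part in the C1q values was not tested.

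Genes of matrix remodelling and wound repair leaned toward higher levels, with 8 of 32 tested higher (25%, against 5.9% of all genes) and 1 lower at an unadjusted p below 0.05, and 5 were higher without the block, without replicate 1 or without replicate 2. The median log2 fold change was 0.31, with 0.07, 0.22 and 0.19 as the medians of the 3 pairs taken singly, beside 0.14 in vehicle. adam8a, described above, had the smallest p. mmp13a, a collagenase gene, had 18.1, 18.9 and 20.7 CPM in Beclo and 40.7, 34.4 and 24.8 CPM in Amp+Beclo (log2 fold change 0.82 ± 0.24 SE, edgeR adjusted p = 0.528), and mmp9, a gelatinase gene, 84.7, 76.5 and 85.4 CPM and 189, 125 and 89.2 CPM (log2 fold change 0.70 ± 0.25 SE). For both genes the groups did not overlap, replicate 1 showed the largest difference and replicate 3 the smallest. plaua, a urokinase gene, was lower, with a log2 fold change of -0.84 ± 0.33 SE. Of the 19 markers of alternatively activated macrophages, 2 were higher and 2 lower (10.53% each, against 5.9% and 3.39% of all genes). arg2, an arginase gene, had 42.0, 58.3 and 57.4 CPM and 52.6, 104 and 112 CPM (log2 fold change 0.76 ± 0.21 SE, vehicle 2.24 ± 0.39 SE, unadjusted p of the difference 0.0137), and mrc1b, a mannose receptor gene, had 348, 1074 and 571 CPM and 887, 539 and 416 CPM, with replicate 1 higher and replicates 2 and 3 lower. tgfb1a, the gene of a cytokine of tissue repair, had a log2 fold change of 0.52 ± 0.27 SE.

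Of 32 genes of chemokine receptors, adhesion and migration, 5 were higher (15.6%, against 5.9% of all genes) and 6 lower (18.8%, against 3.39%), with a median of -0.08 (vehicle -0.67). These counts were 1 and 1 without replicate 2, and 1 and 2 without replicate 3 or without the block. Without replicate 1 they were 4 and 9. fmnl1, a formin gene of leukocyte actin, was higher in each pair (log2 fold change 1.06 ± 0.24 SE), and arpc1b, a subunit gene of the actin-branching Arp2/3 complex, was lower in each pair (-0.58 ± 0.24 SE). ccr2, a chemokine receptor gene of monocytes, had 18.8, 17.5 and 13.5 CPM and 26.8, 14.9 and 8.47 CPM and a log2 fold change of -0.07 ± 0.28 SE, whose sign changed without the block and without replicate 2 or 3. cd22, a sialic acid-binding lectin gene, had 106, 91.0 and 94.7 CPM in Beclo and 217, 182 and 149 CPM in Amp+Beclo, without overlap (log2 fold change 0.95 ± 0.19 SE, DESeq2 adjusted p = 0.0189, vehicle 1.45 ± 0.38 SE). Of 16 eicosanoid genes 2 were higher (12.5%) and 1 lower (6.25%), read against the same shares of all genes. pla2g4a (ENSDARG00000024546), a phospholipase gene that releases arachidonic acid, had a log2 fold change of 1.13 ± 0.31 SE, lta4h, which makes leukotriene B4, -0.79 ± 0.26 SE, and alox5ap, the 5-lipoxygenase activating protein gene, 0.44 ± 0.20 SE. Iron genes gave 1 higher and 1 lower of 16 tested (6.25% each, against 5.9% and 3.39% of all genes). They included hamp, the hepcidin gene, at 8.19, 3.36 and 4.42 CPM and 8.27, 24.8 and 14.6 CPM, and slc40a1, the iron exporter gene, with a log2 fold change of -0.77 ± 0.30 SE.

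Lysosomal and phagocytic genes leaned the other way: none of 41 was higher and 11 were lower at an unadjusted p below 0.05 (26.8%, against 3.39% of all genes). The median log2 fold change was -0.40 with the drug and 0.02 in vehicle, and the pairs had -0.06, -0.47 and -0.76. psap, the gene of the precursor of the saposins, had 5572, 3352 and 3402 CPM in Beclo and 4222, 1809 and 1466 CPM in Amp+Beclo (log2 fold change -0.78 ± 0.25 SE), and the cathepsin genes ctsk and ctsl.1 had -0.86 ± 0.25 SE and -0.67 ± 0.25 SE. The groups overlapped through Amp+Beclo replicate 1. Without replicate 3 a single gene of the list was lower and the median was -0.09. Without replicate 2 the number lower was 3, and without the block it was 1, so the count rested on replicates 2 and 3 and on the pairing. The number lower was 15 without replicate 1 and 16 with RLE scaling. Antigen presentation showed the same direction, with 3 of 14 lower (21.4%, 1 without the block or without replicate 3) and no member above 0, among them ctss2.1, a cathepsin S gene (-0.94 ± 0.35 SE). Over the same pairs the summed macrophage markers of Amp+Beclo stood at 21600, 10310 and 7235 CPM and those of Beclo at 23060, 15720 and 14830 CPM, with replicate 3 the farthest apart, and their part in these lists was not tested.

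Proliferation genes were lower more evenly over the pairs. Of 31 cell cycle genes, 12 were lower (38.7%, against 3.39% of all genes) and none was higher, 27 had a log2 fold change below 0, and the medians of the pairs were -0.42, -0.37 and -0.53, against 0.27 in vehicle. The size was small: aurkb, a mitotic kinase gene, had 55.2, 40.4 and 42.1 CPM and 36.9, 22.0 and 25.9 CPM (log2 fold change -0.66 ± 0.20 SE, edgeR adjusted p = 0.528), and mcm2, a subunit gene of the replicative helicase, -0.46 ± 0.19 SE. The median stayed between -0.49 and -0.43 with RLE scaling, without the block and without each replicate, while the number lower was 14 with RLE scaling, 4 without the block and 4 or 5 when a replicate was left out. Immediate-early genes, which are switched on within minutes of a stimulus, gave 8 of 37 lower (21.6%, against 3.39% of all genes) and none higher. The number lower was 3 without replicate 2, 2 without replicate 3 and 5 without the block, but 10 without replicate 1 and 11 with RLE scaling. btg2, an antiproliferative gene, had 1118, 1112 and 1125 CPM in Beclo and 703, 609.6 and 527 CPM in Amp+Beclo without overlap (log2 fold change -0.82 ± 0.21 SE, DESeq2 adjusted p = 0.0165), dusp1, the MAP kinase phosphatase gene, 3682, 2786 and 3655 CPM and 2599, 1737 and 1558 CPM (-0.75 ± 0.24 SE), and nr4a1, a nuclear receptor gene named after its values were seen, -0.71 ± 0.27 SE. junb (ENSDARG00000104773), a subunit gene of AP-1, was at -0.41 ± 0.21 SE with the drug and 1.01 ± 0.47 SE in vehicle. atf3, a stress-induced member of the same group, was at 0.47 ± 0.22 SE.

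Glucocorticoid target genes gave 2 of 27 higher and 2 lower (7.41% each, against 5.9% and 3.39% of all genes) with a median log2 fold change of 0.0021. fkbp5, given above as a mark of the drug, was at -0.38 ± 0.22 SE, cebpb, a transcription factor gene, was at -0.56 ± 0.27 SE, and lpin1, a lipid phosphatase gene, at 0.59 ± 0.21 SE. Interferon response genes gave 1 of 21 (4.76%) in each direction. mxf was not in that list, its relative mxc had a log2 fold change of 1.18 ± 0.40 SE, sting1, the gene of a DNA-sensing adaptor, -1.18 ± 0.31 SE, and irf8, a macrophage lineage factor gene, -0.60 ± 0.29 SE. Of 23 genes of apoptosis and p53, 2 were higher and 2 lower (8.70% each), with bcl2l1, a survival gene, at 0.71 ± 0.21 SE, sesn1, a p53 target, at -0.58 ± 0.19 SE and mcl1a, a further survival gene, at -0.53 ± 0.26 SE. In the heat shock and unfolded protein response, 1 of 28 was higher, the calreticulin gene calr3b (0.81 ± 0.22 SE), and 1 lower, the transcription factor gene xbp1 (-0.56 ± 0.23 SE). The chaperone gene hspa5 was at 0.24 ± 0.23 SE with the drug and 1.36 ± 0.49 SE in vehicle. The counts of these 4 lists are all read against 5.9% of all genes higher and 3.39% lower. They moved by up to 2 genes in a direction when the block or a replicate was left out.

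The lists of glycolysis, the tricarboxylic acid cycle and the nuclear-encoded respiratory chain had lower medians with the drug than in vehicle, a difference that was tested only gene by gene. Summed muscle markers were higher after amputation in every vehicle pair. They stood at 17650, 14230 and 51860 CPM in Control and 33330, 55650 and 102400 CPM in Amp. With the drug they had no common direction, and their part in these medians was not tested. The libraries of Amp replicates 2 and 3 also stood apart. Their TMM factors were 0.776 and 0.752, against 0.926 or more in every other sample. They had the fewest genes with at least 10 reads, 18060 and 17601. The part of these library differences in the vehicle medians was not tested. Of 39 glycolysis genes, 20 were higher at an unadjusted p below 0.05 after amputation in vehicle (median 0.98), and 5 were higher under beclomethasone (12.8%, against 5.9% of all genes; median 0.06, pairs -0.14, 0.20 and 0.23). These 5, of which ldha follows the naming rule and the rest were named after their values were seen, were the hexokinase genes hk1 and hk2, the phosphofructokinase gene pfkl (ENSDARG00000060504), pfkfb3, which makes the activator of phosphofructokinase, and ldha, which makes lactate. hk2 had 259, 211 and 218 CPM in Beclo and 365, 374 and 321 CPM in Amp+Beclo (log2 fold change 0.68 ± 0.19 SE), and ldha 318, 339 and 272 CPM and 450.2, 545 and 446 CPM (0.69 ± 0.19 SE, edgeR adjusted p = 0.528). The groups did not overlap for either gene. The values of hk1, pfkl and pfkfb3 were 0.58 ± 0.20 SE, 1.04 ± 0.36 SE and 0.78 ± 0.28 SE. The abundant gapdhs, a glyceraldehyde-3-phosphate dehydrogenase gene, was at -0.01 ± 0.23 SE and pkm (ENSDARG00000099730), a pyruvate kinase gene, at -0.18 ± 0.23 SE, and gpi (ENSDARG00000012987) was at -0.35 ± 0.20 SE beside 1.45 ± 0.45 SE in vehicle. gapdhs and pkm changed sign when replicate 3 was left out.

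No tricarboxylic acid cycle gene of 27 had an unadjusted p below 0.05 in either direction under the drug (median -0.12), whereas 15 were higher in vehicle (median 0.79). mdh1, a malate dehydrogenase gene, was at -0.43 ± 0.20 SE and 0.96 ± 0.43 SE. Of 94 nuclear-encoded genes of the respiratory chain and its assembly, 3 were lower with the drug (3.19%, against 3.39% of all genes) and none was higher (median -0.30). In vehicle 78 were higher (median 1.04, pairs 0.14, 1.81 and 1.12). atp5f1b, a subunit gene of the ATP synthase, had a log2 fold change of -0.19 ± 0.23 SE with the drug and 1.03 ± 0.47 SE in vehicle. The pairs did not move together, with medians of -0.63, 0.25 and -0.69 under the drug, and without replicate 2 the number of lower genes was 43. Cytosolic ribosomal protein genes followed the same pairs, with medians of -0.56, 0.83 and -1.31, 1 of 84 lower over all pairs (rps27l, -0.76 ± 0.25 SE) and 71 lower without replicate 2. The 13 mitochondrially encoded genes had a median of 0.22 with the drug and -0.09 in vehicle, and pair medians of 0.21, 1.00 and -1.14 with the drug. None had an unadjusted p below 0.05, and 7 were higher without replicate 3.

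**Figure D3:**
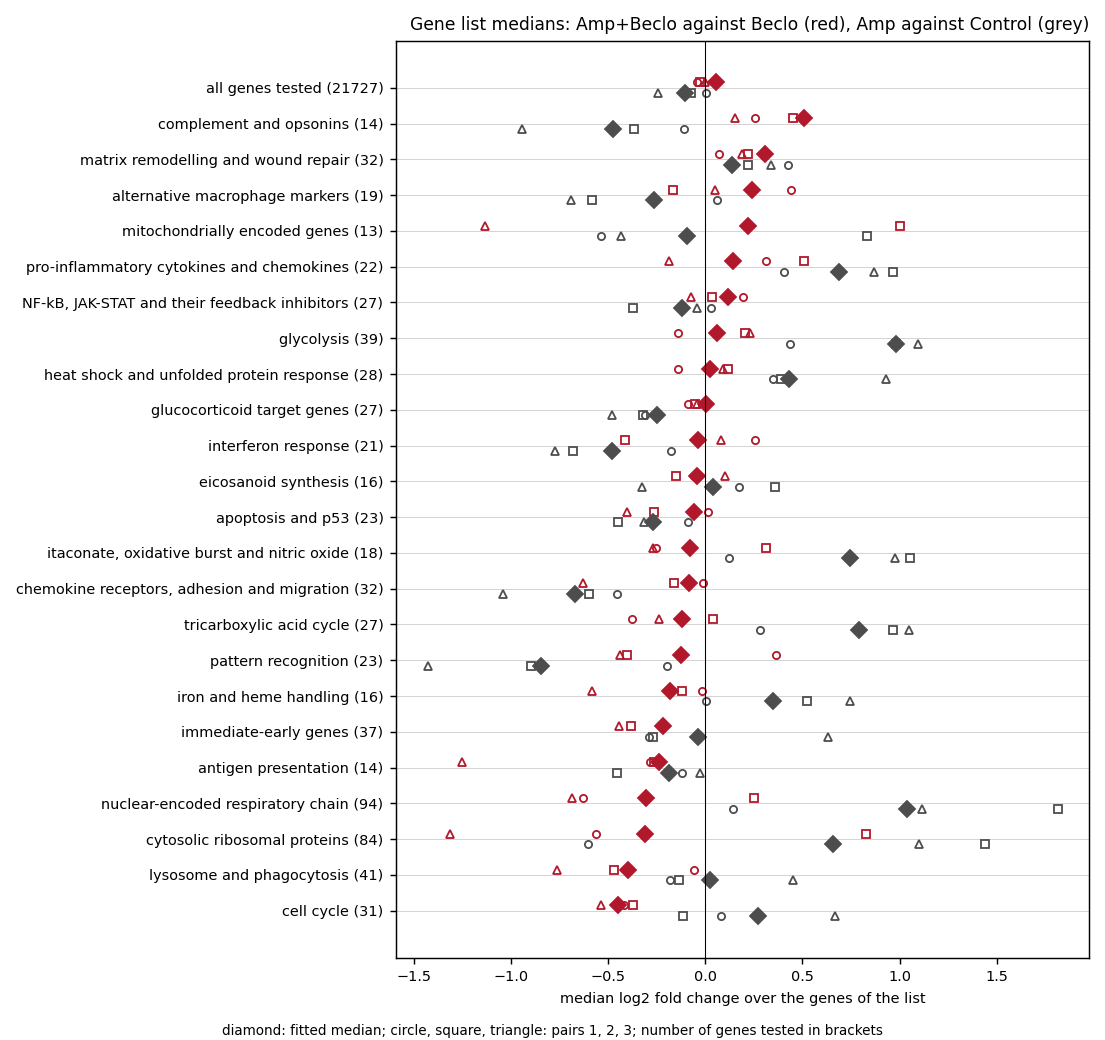
Median log2 fold change over the tested genes of each list, for amputation with beclomethasone (red) and in vehicle (grey); diamonds are the fitted medians and open symbols those of the single pairs. The red diamonds lie between -0.45 (cell cycle) and 0.51 (complement and opsonins), and the grey diamonds of glycolysis and the nuclear-encoded respiratory chain lie at 0.98 and 1.04.

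The genes called for amputation in vehicle were followed in the drug-treated samples, which had no part in their choice. Because they were chosen by a threshold in vehicle, their vehicle values run high, and smaller values in other samples would follow from this alone. How much of the difference from vehicle comes from this choice was not tested. Of the 245 raised in vehicle that were tested in both, 152 (62.0%) had a positive log2 fold change under beclomethasone, beside 54.7% of all genes, and the median was 0.17, against 1.67 in vehicle. Of the 245, 78 (31.8%, against 5.9% of all genes) were higher and 7 were lower at an unadjusted p below 0.05. DESeq2 called 34 of them higher, beside 0.405% of all genes, and 3 lower, beside 0.0967% of all genes. In 64 (26.1%) the log2 fold change was 0.5 times that in vehicle or more, and in 12 (4.90%) it was as large or larger. Over all genes tested in both, these shares were 20.2% and 13.7%, which is not a like background. The median size of the vehicle effect over all those genes was only 0.48, so that small changes give large ratios. Of the 288 genes lowered in vehicle, 136 (47.2%) had a negative and 152 (52.8%) a positive value, beside 54.7% positive over all genes, 26 (9.03%, against 3.39% of all genes) were lower and 18 higher at an unadjusted p below 0.05, and the median was 0.03, beside -1.61 in vehicle. Both values differed between pairs. Among the raised genes 45.3%, 77.6% and 57.1% were higher in pairs 1, 2 and 3, and among the lowered genes 21.9%, 79.5% and 55.6% were lower. Without replicate 2 the median of the raised genes was -0.01 and 49.0% had a positive value, and 56 were higher and 19 lower at an unadjusted p below 0.05. For the lowered genes the counts turned round without replicate 2, with 12 lower and 45 higher and a median of 0.25. With all replicates, DESeq2 called 4 of the 288 lower and 2 higher, beside 0.0967% and 0.405% of all genes.

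Among the 10 genes with the smallest p for a rise in vehicle, those already described (si:dkey-195m11.11, mxf, il6, csf3b and hamp) and si:ch211-224l10.5 and si:ch211-284o19.8 were higher in Amp+Beclo than in every Beclo sample. For hamp the groups barely separated, with nearly equal values in replicate 1. Genes picked by a small p in vehicle tend to show smaller effects in other samples. The tests of the difference given for them reuse those vehicle values. si:ch211-224l10.5 had 5.49, 4.79 and 5.68 CPM in Beclo and 14.0, 42.6 and 18.8 CPM in Amp+Beclo (log2 fold change 2.12 ± 0.38 SE, vehicle 3.31 ± 0.48 SE). si:ch211-284o19.8 had 520.4, 270.4 and 303 CPM and 822, 1249 and 719 CPM (log2 fold change 1.42 ± 0.31 SE, vehicle 3.41 ± 0.47 SE, unadjusted p of the difference 0.00782). ifitm1, an interferon-inducible membrane protein gene, overlapped between the groups, with 17.7, 9.59 and 10.2 CPM and 15.4, 37.3 and 19.8 CPM, and its log2 fold change was 0.96 ± 0.40 SE beside 3.27 ± 0.44 SE in vehicle (unadjusted p of the difference 0.00352). si:dkey-102g19.3 was at 0.63 ± 0.36 SE and 3.16 ± 0.41 SE (unadjusted p of the difference 0.000739), and slc12a3, a salt transporter gene, varied from 0 to 21.5 CPM over the 6 samples with no common direction. Of the 5 genes with the smallest p for a fall in vehicle, tg, the thyroglobulin gene, had too few reads to be tested under the drug, and si:dkey-7i4.1, si:dkey-238d18.5, si:dkey-9k7.3 and pcsk5a, a proprotein convertase gene, had log2 fold changes of -0.16, -0.75, -0.69 and 0.26 with overlapping groups.

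**Figure D4:**
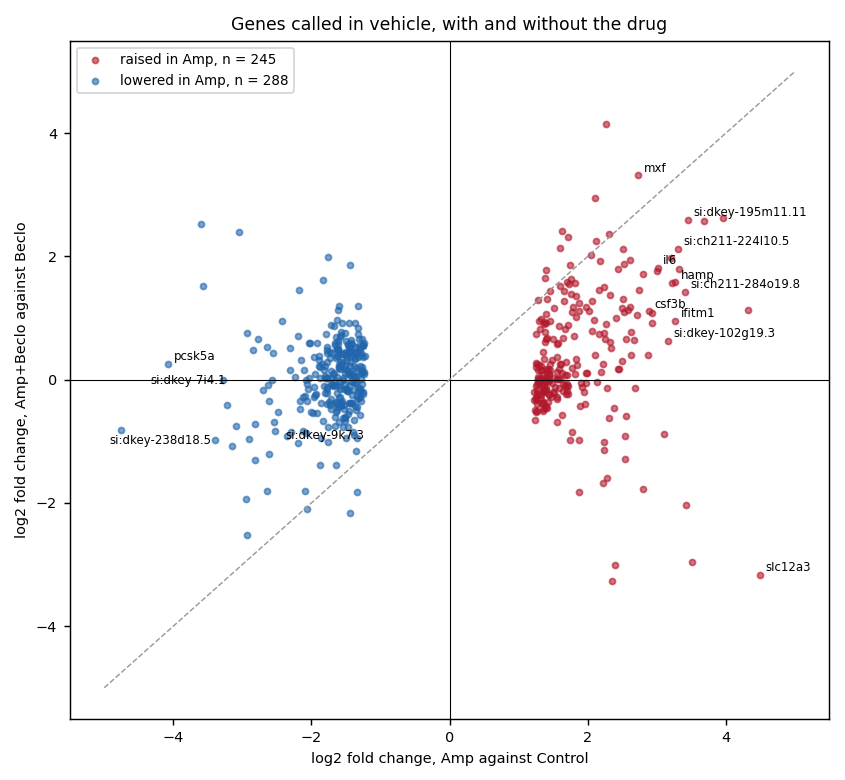
Log2 fold change of amputation in vehicle (horizontal) and under beclomethasone (vertical) for the 245 genes raised and the 288 lowered in vehicle; the dashed line marks equal values and the labels give the genes with the smallest p in vehicle. The genes were chosen by their vehicle values, which alone tends to put raised genes below the dashed line. Most raised genes lie there, with a median of 0.17 on the vertical axis, and the lowered genes scatter around 0.03.

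When the amputation effects with and without the drug were tested against each other gene by gene, none of 21979 genes passed an adjusted p below 0.05 with edgeR (0%; 2389 genes, or 10.9%, at an unadjusted p below 0.05, smallest adjusted p 0.451). limma-voom gave none either, DESeq2 gave 5 with and 1 without the block. For none of the single genes above did the difference between vehicle and drug itself pass after adjustment with edgeR. For genes picked by a small p with the drug or in vehicle, the unadjusted p of the difference reuses the values that picked them.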

How the data were processed

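Libraries were made from sorted-cell RNA (SMART-seq V4) and read on an Illumina HiSeq 2500. According to the methods, the authors mapped the reads with TopHat 2.1.0 to the zebrafish genome GRCz10 and tested with DESeq 1.26.0. The program that counted the reads and its strand setting are not given in the sources used here, so reads of overlapping or antisense genes, and of near-identical copies, may be shared or lost. The deposited files hold raw read counts per gene, 1 file per sample, in whole numbers. Reads outside genes took 7.68% to 11.8% of the reads of the 6 samples and reads counted as ambiguous a further 1.64% to 2.1%. Both were left out. Totals on genes were 9488569 to 15161157 reads per sample. Counting error is therefore small beside the spread between samples except for genes with few reads. The samples of a group differed from each other by far more than counting error, so none was taken as a copy of another.

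Genes with a sum of at least 30 reads over the 6 samples (60 over 12 for the difference between the amputation effects) were tested in edgeR 4.0.16 (R 4.3.3) by the quasi-likelihood test with TMM factors and the replicate number as a block. Calls needed a Benjamini-Hochberg adjusted p below 0.05 and a fold change above 2. The SE of a log2 fold change is its size divided by the square root of the F statistic. CPM values used TMM factors over all 12 samples, and log2 ratios of single pairs a prior count of 2. DESeq2 1.42.0, limma-voom 3.58.1, RLE factors, other filters on low counts, all 12 samples in 1 fit, no fold cutoff, no block and the omission of each replicate were the alternatives. The fits were also run on simulated counts with large known changes in genes with many reads and the same spread for every gene. This checked the code and does not show how well the fits perform on these samples.

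Genes were named by rule: every called gene, up to 30; the 12 higher and 12 lower genes with the smallest p, a symbol, at least 10 reads in each sample of the higher group, a fold change above 2 and the same direction in all 3 pairs; genes the study text names for macrophages; up to 4 members of each list (the smallest p in each direction and the most abundant); and the 10 rising and 5 falling genes with a symbol, the smallest p in vehicle and the same direction in all 3 pairs. Exceptions are given as named after their values were seen, and some genes that the rule took are not reported here. The samples, gene lists and rules were chosen with earlier results of these data known. Symbols came from a table of gene names, which had one for 26121 of 31962 identifiers, 4294 of them shared between identifiers. The 2 marker genes mpx and cpa5 were not matched.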

Additional observations from a re-analysis of the deposited data

Results flagged for a closer look

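For 6 of 112 named identifiers every pair moved one way under beclomethasone and every pair the other way in vehicle. The share over all genes was not counted, and the p values below reuse the values that flagged these 6. The difference between the effects, drug minus vehicle in the fit of all 12 samples, was -1.56 on the log2 scale for junb (ENSDARG00000104773; unadjusted p = 0.0535 by edgeR), -0.80 for arpc1b (0.2), -2.05 for gpi (ENSDARG00000012987; 0.0129), -1.31 for xbp1 (0.0424) and -1.04 for mcm2 (0.0942), all lower with the drug. For pfkl (ENSDARG00000060504) it was 1.79 (0.0109), higher with the drug. None passed after adjustment over all genes, where the smallest adjusted p of any gene was 0.451.

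The medians of the iron and complement lists also had opposite signs in all pairs. The iron list had a median of -0.18 under beclomethasone and 0.35 in vehicle, and the complement list 0.51 and -0.47. In pair 1 the iron medians were as small as -0.018 under beclomethasone and 0.0052 in vehicle. The number of detected genes (1 read or more) was on average 815.7 higher in the amputated sample of a pair under beclomethasone, with 309, 44 and 2094 more genes in pairs 1 to 3, and lower in vehicle, by 474, 1005 and 1499 genes. For these 3 measures the difference was not tested.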

How the results depend on the processing

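The number of genes called under beclomethasone, 1 with edgeR and the block, was 109 with DESeq2 with the block, 49 with DESeq2 without it, 1 with limma-voom, 0 with RLE factors, 18 without a filter on low counts, 14 with at least 10 reads in every sample, 1 with all 12 samples in 1 fit, 1 without the fold cutoff, and 0 to 38 when a replicate was left out (38 without replicate 3, 0 without the others). In vehicle the 543 calls became 826 with DESeq2 with the block, 25 with DESeq2 without it, 975 with limma-voom, 7 with all 12 samples and 2 to 1508 when a replicate was left out (1508 without replicate 1, 66 without replicate 2, 2 without replicate 3). The difference between the effects gave 5 calls with DESeq2 with the block, 1 without it and 0 under the other alternatives. The cause of these shifts was not tested.

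Without the replicate block edgeR called 0 genes under beclomethasone (1140 at an unadjusted p below 0.05) and 0 in vehicle (938). The deviations of same-numbered samples from their group means correlated at 0.318, -0.00608 and 0.0846, and those of Amp+Beclo replicates 2 and 3 correlated best with another number (0.103 and 0.189), so the data alone do not show the pairing. Without the block the median of the raised vehicle genes was 0.23, against 0.17 with it.

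Among the named genes, the log2 fold change changed sign without the block for ccr2 (0.058), pcsk5a (-0.33) and pfkl (ENSDARG00000099755; -0.038), and for cxcl18b with DESeq2 (-0.0036) and RLE factors (-0.0038). When a replicate was left out it ranged from -0.40 to 0.20 for ccr2, -0.12 to 0.31 for cxcl18b, -0.43 to 0.17 for cxcr4 (ENSDARG00000057633), -0.14 to 0.14 for gapdhs, -0.68 to 0.51 for mrc1b, -1.14 to 1.72 for pcsk5a, -0.078 to 0.46 for pfkl (ENSDARG00000099755), -0.30 to 0.023 for pkm and -0.47 to 0.10 for si:dkey-7i4.1. The medians of the raised and lowered vehicle genes, in the vehicle direction, ranged from -0.01 to 0.42 and from -0.25 to 0.31 in the same way, and the shares with the vehicle sign from 49.0% to 69.0% and from 35.3% to 66.0%.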
